A study of Mus musculus with 51 samples.

Results

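The 41 genes described here encode the extracellular and receptor layer of Wnt signaling in the mouse: 19 Wnt ligands, 10 Frizzled receptors, 4 R-spondins, 4 secreted Frizzled-related proteins and 4 Dickkopf proteins. They are all rows of the count table, 41 of 55401 genes, whose names are *Wnt*, *Fzd*, *Rspo*, *Sfrp* or *Dkk* followed by a family number. Membership follows from the gene name and uses no measured value. Messenger RNA was sequenced in 30 libraries, 3 in each of 10 groups, all from XY mice of mixed 129Sv and C57Bl/6J background. Gonads were taken at P28 from wild-type mice and from *Dmrt1*+/-, *Dmrt1*-/- and R111G/+ mutants, and at P3 from *Dmrt1*+/-, *Dmrt1*-/-, R111G/+ and R111G/- mutants, with no wild-type group at P3. The P7 libraries came from Sertoli cells isolated from tubules, with both *Dmrt1* copies floxed (f/f) or 1 copy floxed (f/+), in mice that also carried Dhh-Cre and the CAG-Stopflox-tdTomato reporter. Dhh-Cre acts in the Sertoli cell lineage, and the tubules of several mice were pooled. The f/+ columns are titled wild-type, while their genotype label is f/+. The R111G line, whose allele changes 1 residue of the DNA-binding domain, descends from 1 edited founder.

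Wnt proteins are secreted lipid-modified ligands that bind Frizzled receptors together with the co-receptors Lrp5 and Lrp6, which keeps β-catenin from being degraded, or that act through other receptors without β-catenin. R-spondins prolong the signal by taking the ubiquitin ligases Rnf43 and Znrf3 off the membrane, whereas Sfrp proteins bind Wnts outside the cell and most Dickkopf proteins block the co-receptors. In the fetal gonad of the mouse, *Wnt4* and *Rspo1* promote ovarian development, and both are kept low in the testis.

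The 250 bases ahead of the annotated start were read from RefSeq (GRCm38.p6) for the 27 genes that matched by symbol. Those of 4 genes are shown because the results turn on these genes: *Wnt4* and *Rspo1* as the ovary-associated pair, *Wnt11* as a ligand that changed in isolated Sertoli cells, and *Wnt3* as one with no read in *Dmrt1*-/- gonads at P28. All lie on the plus strand, and capitals mark CG dinucleotides. For *Wnt4* and *Wnt3*, 146 and 25 bases that fall in annotated exons were left out.
*Wnt4*, chr4:137277385-137277488: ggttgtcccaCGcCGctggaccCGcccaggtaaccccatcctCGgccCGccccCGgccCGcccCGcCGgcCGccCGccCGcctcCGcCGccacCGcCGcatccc
*Rspo1*, chr4:124986180-124986429: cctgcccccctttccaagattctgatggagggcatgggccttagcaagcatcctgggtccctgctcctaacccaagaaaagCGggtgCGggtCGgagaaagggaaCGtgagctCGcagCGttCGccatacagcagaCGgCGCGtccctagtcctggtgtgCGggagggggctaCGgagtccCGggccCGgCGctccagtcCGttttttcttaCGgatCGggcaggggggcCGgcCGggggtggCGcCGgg
*Wnt11*, chr7:98834862-98835111: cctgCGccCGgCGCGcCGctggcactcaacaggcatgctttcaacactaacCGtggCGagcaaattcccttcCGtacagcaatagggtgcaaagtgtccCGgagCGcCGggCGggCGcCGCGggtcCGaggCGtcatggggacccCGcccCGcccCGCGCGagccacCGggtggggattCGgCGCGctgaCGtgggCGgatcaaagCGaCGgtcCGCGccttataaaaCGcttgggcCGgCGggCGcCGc
*Wnt3*, chr11:103773925-103774149: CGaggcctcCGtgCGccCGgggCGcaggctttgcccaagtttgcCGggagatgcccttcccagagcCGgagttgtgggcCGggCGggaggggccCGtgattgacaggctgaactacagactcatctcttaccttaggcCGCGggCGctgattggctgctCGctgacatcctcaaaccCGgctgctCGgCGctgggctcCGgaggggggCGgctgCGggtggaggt

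The printed stretches are rich in CG dinucleotides, with 16 in *Wnt4*, 22 in *Rspo1*, 37 in *Wnt11* and 20 in *Wnt3*. Across the 27 matched genes the median window held 23 CG dinucleotides and 70.8% G and C, and across all 32851 promoter windows of the same length it held 6 (quartiles 2 and 16) and 52.4% (quartiles 45.2% and 61.2%). The letters CTTTGA, the core bound by the TCF and LEF factors of the pathway, stood on either strand in 3 member windows (*Dkk1*, *Fzd1* and *Wnt11*) and in 13.8% of all windows. The core ACANTGT, a short form of the DMRT1 site, stood in 1 member window (*Wnt16*) and in 6.47% of all, and AGGTCA, a nuclear receptor half-site, in *Wnt16* alone and in 14.0%. The forkhead core GTAAACA stood in 0 member windows and in 3.17% of all. These matches describe letters and not sites.

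Library totals ran from 5043838 to 12792811 counts, with a median of 8776697. *Dmrt1* itself stood at 0.171 to 0.462 CPM (counts scaled to a common library size with TMM factors) in *Dmrt1*-/- gonads at P28 and at 31.1 to 73.0 CPM in the other P28 groups, and at 21.2 to 36.7 CPM in f/f against 168 to 258 CPM in f/+ Sertoli cells. The makeup of the P28 gonads differed between groups. The summed level of 8 spermatid genes was 16781 to 20329 CPM in wild-type testes, 25.6 to 32.4 CPM in *Dmrt1*-/- gonads and 594 to 776 CPM in R111G/+ gonads, and *Dmrt1*+/- replicate 3 (4197 CPM) stood apart from replicates 1 and 2 (15785 and 20494 CPM). All 10 stromal and all 10 endothelial markers were called higher at P28 when *Dmrt1*-/- was set against wild-type, from 606 to 950 CPM to 5142 to 6081 CPM and from 60.2 to 83.9 CPM to 640 to 741 CPM in sum. Of 12 granulosa genes 10 rose, and their sum was 365 to 485 CPM in wild-type and 4931 to 5203 CPM in *Dmrt1*-/- gonads. In whole gonads, fewer cells of a type and less RNA per cell cannot be told apart, and the part of cell makeup in the values below was not tested.

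The pathway was expressed in every group, and its most abundant ligand per length was the same throughout. *Wnt6*, a ligand of epithelial cells, had the highest mean level of the 19 ligands in all 10 groups on the scale of CPM per kilobase of exon (CPM per kb), from 19.2 in wild-type P28 testes to 127 in f/+ and 166 in f/f Sertoli cells. In wild-type testes at P28 the next levels on this scale were those of *Wnt5b* (5.51 CPM per kb) and *Wnt3* (5.25), and the highest receptor was *Fzd1* (4.81). *Dmrt1*-/- gonads at P28 had another order, led by *Sfrp4* (67.8 CPM per kb), *Wnt6* (56.1) and *Fzd2* (44.4), and then *Wnt5a* (18.6) and *Wnt4* (17.9). P3 gonads of *Dmrt1*+/- mice were led by *Wnt6* (64.5), *Sfrp1* (47.4) and *Wnt5a* (29.3). *Fzd3* was the highest receptor in Sertoli cells (29.1 in f/+ and 24.4 in f/f), followed by *Fzd5* (17.1 and 22.4).

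**Figure D1:**
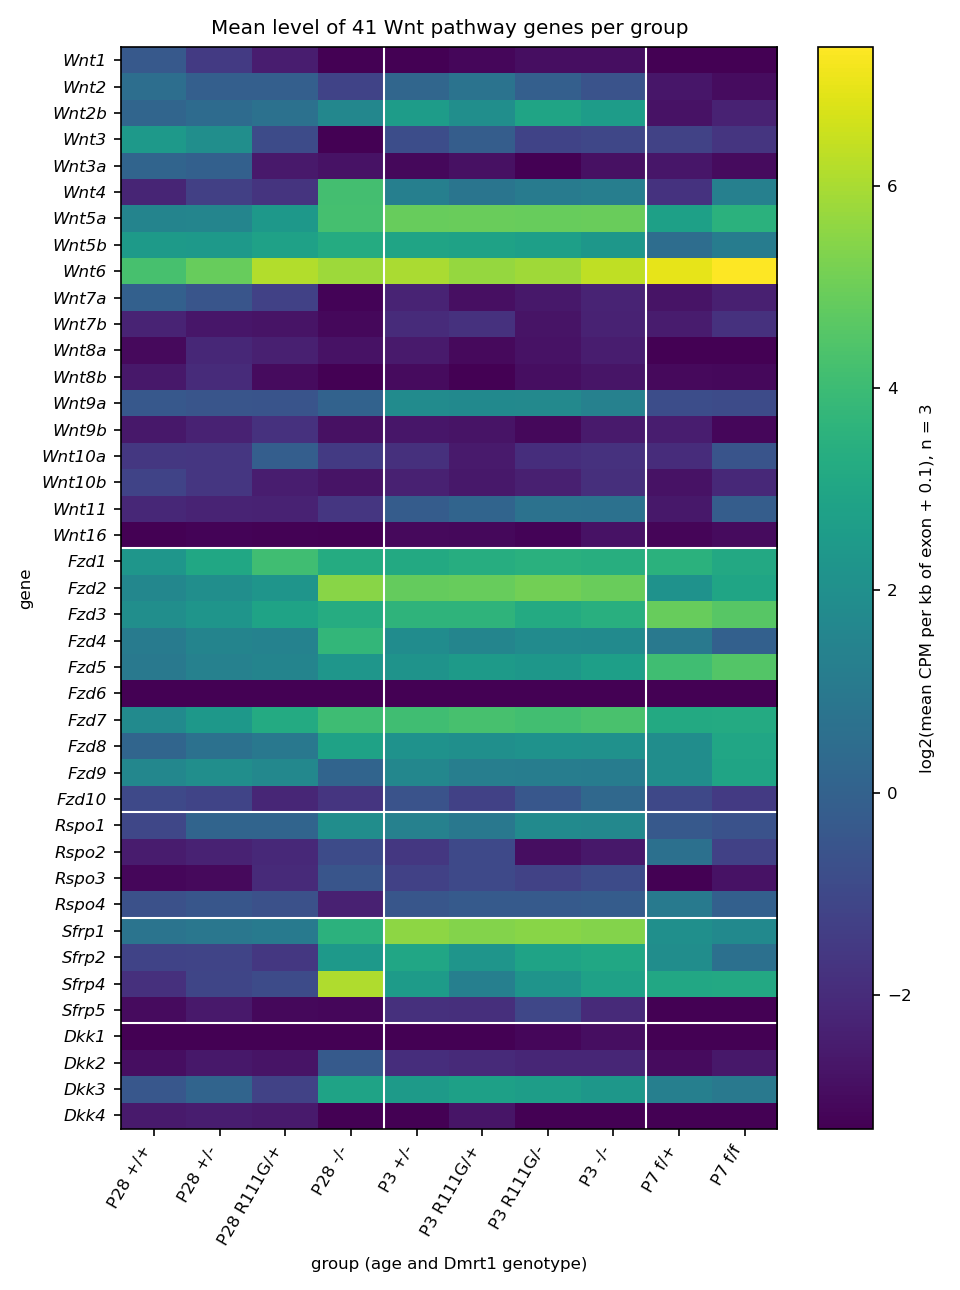
Mean level of each of the 41 genes (rows) in each of the 10 groups (columns), as colour on the scale log2(CPM per kilobase of exon + 0.1), with 3 libraries a group. *Wnt6* is bright in every column (19.2 CPM per kb in wild-type P28 testes), *Sfrp4* is brightest in *Dmrt1*-/- gonads at P28 (67.8 CPM per kb), and *Fzd6* is at the floor throughout.

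Several members had few or no counts. *Fzd6*, a Frizzled of the planar polarity branch, was listed at 0 in all 30 libraries, and whether this reflects its expression or its counting could not be told from the files. Over all libraries together *Dkk1*, the best known co-receptor antagonist, had 3 counts, *Dkk4* 10, *Wnt16* 15, *Wnt8a* 26, *Wnt8b* 37, *Sfrp5* 49, *Wnt1* 67 and *Wnt9b* 90. The filter on low counts kept 30 of the 41 genes at P28, 26 at P3 and 19 in P7 Sertoli cells, and only those were tested.

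At P28 the question was what loss of *Dmrt1* did to the pathway in the gonad. Of the 30 tested members, 25 changed more than 2-fold between wild-type testes and *Dmrt1*-/- gonads (edgeR quasi-likelihood test, Benjamini–Hochberg adjusted P below 0.05), 18 higher and 7 lower. The background was high, since 66.6% of all tested genes were called, 26.1% higher and 40.5% lower. Among the members the share called was 83.3%, with 60% higher and 23.3% lower, and their median log2 fold change was 1.56 beside -0.31 over all genes. Against *Dmrt1*+/- testes 22 were called, 16 higher and 6 lower, where 58.5% of all genes were called, 19.8% higher and 38.7% lower, with a median of 1.15 for the members and -0.28 for all genes. The 2 comparisons share the *Dmrt1*-/- libraries. *Rspo2*, *Rspo3*, *Sfrp2* and *Dkk2* passed the filter on low counts only through these libraries. *Wnt1* passed only through the wild-type ones. For these members the filter fixed the direction of any change from wild-type, and the shares above include them. For those that passed through the *Dmrt1*-/- libraries it also fixed the direction against *Dmrt1*+/- testes.

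The split of higher and lower depends on the scaling. When the libraries were scaled on macrophage, endothelial, peritubular myoid and stromal genes alone, the median of all genes moved from -0.31 to -2.73 against wild-type testes, and 5 members were higher and 14 lower. The 5 were *Wnt4*, *Fzd2*, *Rspo3*, *Sfrp2* and *Sfrp4*. Over all genes the called set moved from 5472 higher and 8476 lower to 433 higher and 16522 lower under this scaling. Against *Dmrt1*+/- testes, where the median of all genes became -2.20, 5 members were higher and 11 lower. Over all genes 440 were then called higher and 15880 lower. The factor was the summed count of the 4 lists, and the stromal list was its largest part in every P28 group. Stromal sums were 606 to 950 CPM in wild-type testes and 5142 to 6081 CPM in *Dmrt1*-/- gonads. Against wild-type testes the lists did not move together under this scaling. Of 10 stromal genes 3 were called higher and 1 lower, and of 10 endothelial genes 4 higher. Of 8 peritubular myoid genes 7 were called lower, and of 10 macrophage genes 1.

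Among the ligands, *Wnt4* changed most upward. Its level was 0.460, 0.706 and 0.284 CPM in wild-type testes, 0.944, 0.224 and 2.75 CPM in *Dmrt1*+/- testes, and 63.8, 87.5 and 74.4 CPM in *Dmrt1*-/- gonads. The *Dmrt1*-/- libraries lay far above all others with no overlap, and *Dmrt1*+/- replicate 3, the library poor in spermatid transcripts, was the highest of the rest. The log2 fold change was 7.28 (SE 0.56, adjusted P = 6.8e-08) against wild-type and 5.78 (SE 0.48, adjusted P = 1.8e-07) against *Dmrt1*+/- testes. Without *Dmrt1*+/- replicate 3 the latter was 6.95. Under the somatic scaling the values were 4.92 and 3.88 and passed the test there too. *Wnt4* is at chr4:137277489-137299726 on the plus strand (GRCm38).

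*Wnt5a*, a ligand that signals mainly without β-catenin, stood at 31.2, 19.8 and 12.8 CPM in wild-type testes and at 167, 137 and 133 CPM in *Dmrt1*-/- gonads, and the groups did not overlap. Its log2 fold change of 2.80 (SE 0.35, adjusted P = 6.5e-06) became 0.47 and lost its call under the somatic scaling. *Wnt6* stood at 65.7, 33.5 and 27.1 CPM in wild-type testes and at 108, 129 and 132 CPM in *Dmrt1*-/- gonads, a log2 fold change of 1.57 (SE 0.35) that turned to -0.75 under the somatic scaling. *Wnt2b* likewise had a log2 fold change of 1.56 (SE 0.41) that turned to -0.88, and its call rested on *Dmrt1*-/- replicate 3 (21.5 CPM beside 7.17 and 8.70). Without that library it stood at 0.88 against wild-type and at 0.53 (adjusted P = 0.163) against *Dmrt1*+/- testes and was not called.

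A group of ligands went the other way. *Wnt3*, which drives β-catenin signaling in the embryo, stood at 16.9, 17.4 and 14.2 CPM in wild-type testes, at 17.7, 13.2 and 3.73 CPM in *Dmrt1*+/- testes, and had no count in the 3 *Dmrt1*-/- libraries. Taking a floor of 3 counts for the group, this is at least 161-fold lower than wild-type and at least 112-fold lower than *Dmrt1*+/- testes. The lowest *Dmrt1*+/- library for *Wnt3*, replicate 3, was also the one low in spermatid transcripts. *Wnt1* fell from 37 counts over the wild-type group to 0, at least 16.1-fold. *Wnt7a* had 63 counts over the wild-type group and 1 in *Dmrt1*-/- gonads (ratio 82.2, 95% counting interval 14.2 to 3299). *Wnt3a*, a β-catenin ligand, had 62 and 3 (ratio 27.0, interval 8.81 to 134). *Wnt2* fell as well (log2 fold change -1.92, SE 0.54), against wild-type only among the 2 comparisons, and the difference between them was not tested. *Wnt5b* (0.80, adjusted P = 0.0303) stayed under the fold limit, and *Wnt9a* (0.50) and *Wnt10a* (0.11) did not pass the test.

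**Figure D2:**
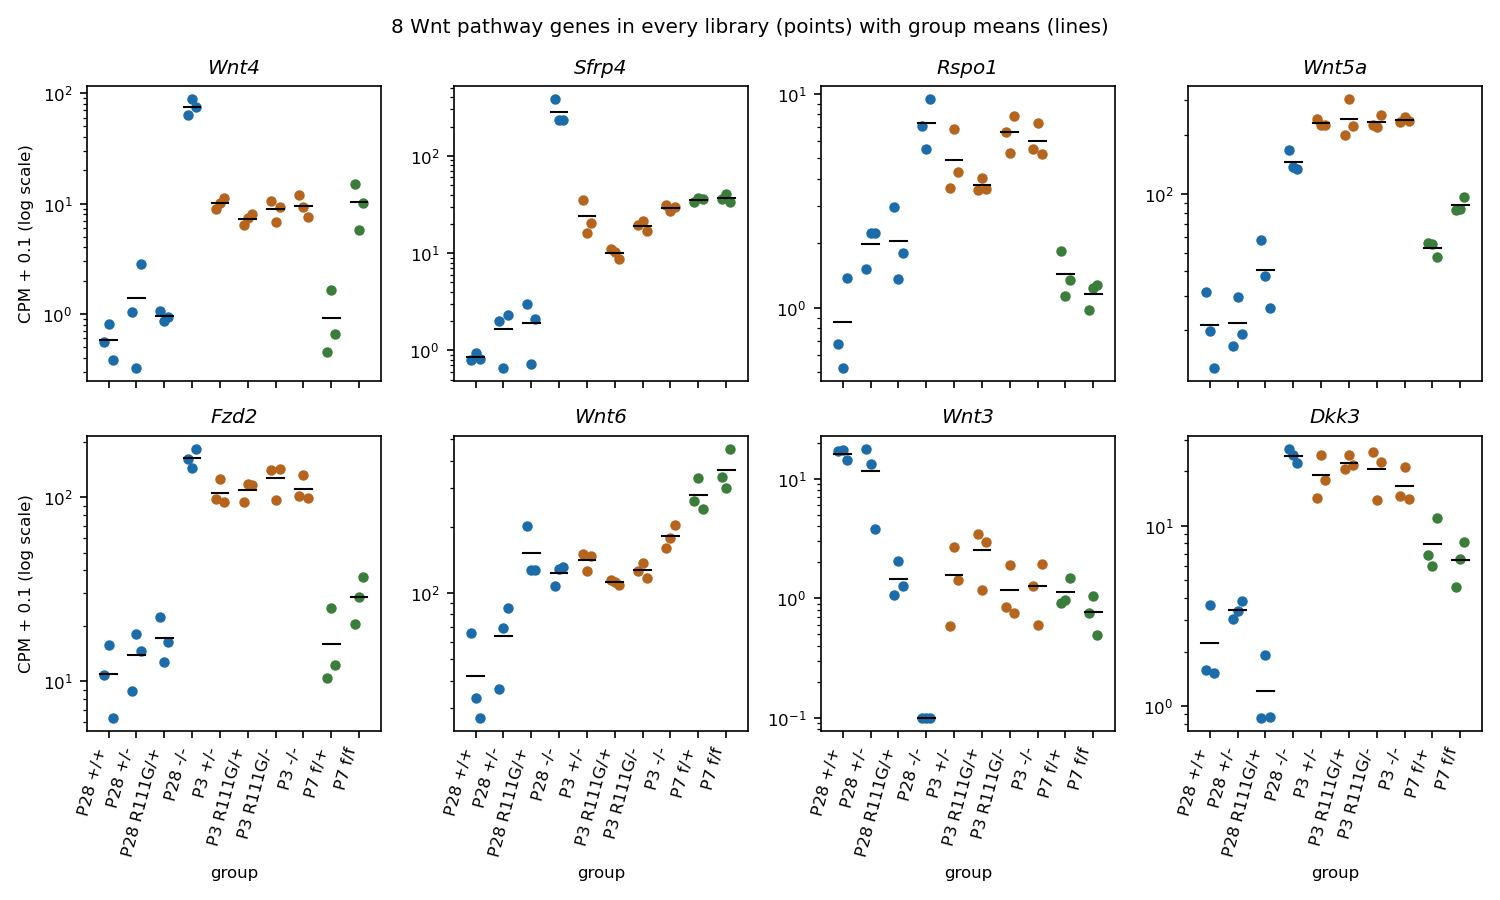
Level of 8 genes in each of the 30 libraries, as CPM + 0.1 on a log axis, by group, with points for libraries and lines for group means. *Wnt4* is at 63.8 to 87.5 CPM in the *Dmrt1*-/- gonads of P28 and at 0.224 to 2.75 CPM in the other P28 groups, while *Wnt3* has no count in those *Dmrt1*-/- libraries.

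Of the 9 tested Frizzled receptors 6 rose against wild-type testes, 3 of which turned in sign under the somatic scaling, and 1 fell, with a median log2 fold change of 1.41. *Fzd2* stood at 10.7, 15.7 and 6.25 CPM in wild-type testes, 8.78, 17.9 and 14.5 CPM in *Dmrt1*+/- testes, and 161, 145 and 182 CPM in *Dmrt1*-/- gonads. The *Dmrt1*-/- libraries again formed a group of their own, with a log2 fold change of 3.94 (SE 0.34, adjusted P = 2.3e-07), or 1.51 under the somatic scaling. *Fzd8* (2.81), *Fzd4*, also the receptor for the vascular ligand norrin (2.72), and *Fzd7* (2.33) rose, as did *Fzd3* (1.41) and *Fzd5* (1.39), but under the somatic scaling *Fzd3* and *Fzd5* turned to -1.03 each and *Fzd7* to -0.048. *Fzd9* fell (log2 fold change -1.58, SE 0.29), from 5.87, 8.89 and 6.10 CPM to 1.62, 2.65 and 2.48 CPM. *Fzd1* (0.99) and *Fzd10* (-0.94) were not called. Against *Dmrt1*+/- testes 5 receptors rose, and *Fzd3* (1.05) lay at the fold limit and dropped under it without *Dmrt1*+/- replicate 1 (0.92), *Dmrt1*-/- replicate 1 (0.99) or *Dmrt1*-/- replicate 3 (0.96), besides turning to -0.85 under the somatic scaling.

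Of the 4 R-spondins 3 rose and 1 fell. *Rspo2* and *Rspo3* could only be tested because they were high in *Dmrt1*-/- gonads, so their direction was fixed by the filter. *Rspo1* stood at 0.575, 0.423 and 1.28 CPM in wild-type testes, 1.42, 2.13 and 2.13 CPM in *Dmrt1*+/- testes, and 6.94, 5.41 and 9.30 CPM in *Dmrt1*-/- gonads. These groups did not overlap, and the log2 fold change was 3.28 (SE 0.47, adjusted P = 2.1e-05) against wild-type and 1.93 (SE 0.41, adjusted P = 0.00071) against *Dmrt1*+/- testes. Under the somatic scaling it was 0.85 and 0.05 and was not called. *Rspo3*, which acts on vessels and stem cells, had 1 count over the wild-type group and 56 over the *Dmrt1*-/- group (ratio 42.9, interval 7.39 to 1724). *Rspo2* rose (2.54, SE 0.56), from 0.142 to 0.565 CPM in wild-type testes to 1.85 to 3.08 CPM. *Rspo4*, known for its role in nail growth, fell (-2.29, SE 0.87), from 0.460, 2.68 and 0.568 CPM to 0, 0.424 and 0.256 CPM, and lost its call without wild-type replicate 2 (-1.07, adjusted P = 0.289), *Dmrt1*-/- replicate 1 (-1.78, adjusted P = 0.0766) or *Dmrt1*-/- replicate 3 (-2.39, adjusted P = 0.0569).

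The secreted antagonists that could be tested, 3 Sfrp and 2 Dickkopf genes, all rose. *Sfrp2* and *Dkk2* passed the filter only through the *Dmrt1*-/- libraries, so their direction was fixed by it. *Sfrp5*, *Dkk1* and *Dkk4* did not pass. *Sfrp4* stood at 0.690, 0.847 and 0.710 CPM in wild-type testes, 1.89, 0.560 and 2.22 CPM in *Dmrt1*+/- testes, and 380, 235 and 234 CPM in *Dmrt1*-/- gonads. It had the largest upward log2 fold change of the members, 8.58 (SE 0.52) against wild-type and 7.46 (SE 0.47, adjusted P = 2.0e-08) against *Dmrt1*+/- testes, and 6.21 and 5.54 under the somatic scaling. *Sfrp2* stood at 0.568 to 0.847 CPM in wild-type testes and 10.7 to 11.8 CPM in *Dmrt1*-/- gonads (3.92, SE 0.36). *Sfrp1* rose from 6.10 to 8.75 CPM to 34.9 to 73.1 CPM (2.83, SE 0.39) and *Dkk3*, a Dickkopf protein that does not act like the others on Lrp6, from 1.42 to 3.53 CPM to 22.0 to 26.5 CPM (3.54, SE 0.39). *Dkk2* had 3 counts over the wild-type group and 80 over the *Dmrt1*-/- group (ratio 20.4, interval 6.74 to 101). Under the somatic scaling *Sfrp1*, *Dkk2* and *Dkk3* kept a positive log2 fold change (0.43, 1.99 and 1.10) and lost their calls.

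**Figure D3:**
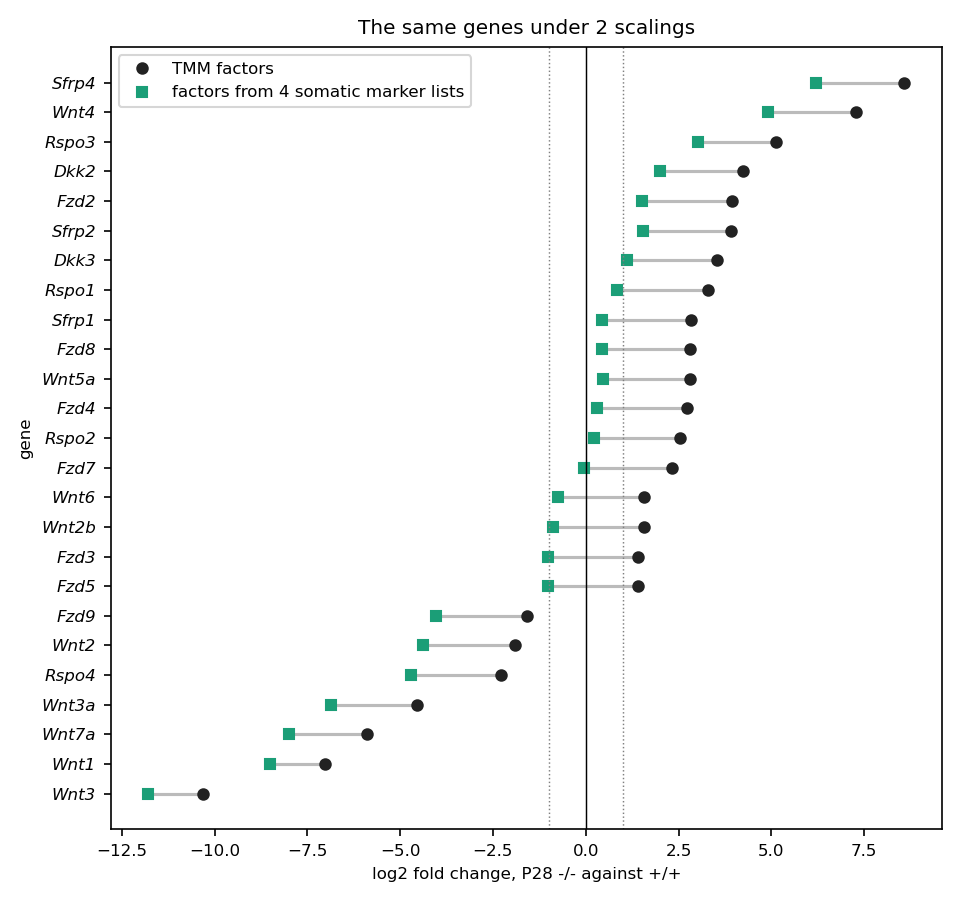
Log2 fold changes of the 25 members called between wild-type and *Dmrt1*-/- gonads at P28, under TMM scaling (circles) and under factors from 4 somatic marker lists (squares). *Sfrp4* moves from 8.58 to 6.21 and *Wnt4* from 7.28 to 4.92, while *Wnt2b*, *Wnt6*, *Fzd3*, *Fzd5* and *Fzd7* cross 0.

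*Dmrt1*+/- and wild-type testes were compared next, to see whether 1 copy sufficed. edgeR called 0 of the 30 members, and 0% of all genes, with 5 members and 3769 genes at an unadjusted P below 0.05. DESeq2 called 0 members and 33 genes. The members with the smallest P were *Fzd7* (log2 fold change 0.64, adjusted P = 0.220) and *Rspo1* (1.35, adjusted P = 0.222), and *Wnt4* stood at 1.50 (adjusted P = 0.268). Without *Dmrt1*+/- replicate 3, the library poor in spermatid transcripts, *Wnt4* stood at 0.34 (adjusted P = 0.855 in edgeR).

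The R111G allele at P28 gave a much smaller and partly different set. Of the 30 tested members 6 were called in R111G/+ gonads against *Dmrt1*+/- testes, 3 higher and 3 lower (20%, with 10% each way), where 34.8% of all genes were called, 6.72% higher and 28.1% lower. Their median was 0.10 beside -0.17 over all genes. Under the somatic scaling 0 were called higher and 10 lower, where 73 of 20952 genes were called higher and 10265 lower. Without *Dmrt1*+/- replicate 1, under TMM scaling, only 3 members were called. *Wnt3* stood at 0.957, 1.96 and 1.15 CPM in R111G/+ gonads, below each *Dmrt1*+/- library (log2 fold change -3.02, SE 0.52, adjusted P = 0.00066). *Wnt3a* fell (-3.56, SE 0.75), as did *Dkk3* (-1.50, SE 0.40), which stood at 0.765, 1.82 and 0.770 CPM beside 2.93, 3.25 and 3.73 CPM in *Dmrt1*+/- testes. *Dkk3* thus fell with R111G/+ and rose with *Dmrt1*-/-, each against the same *Dmrt1*+/- libraries.

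Higher in R111G/+ gonads were *Wnt6* (202, 127 and 127 CPM beside 36.5, 69.1 and 85.8 CPM), with a log2 fold change of 1.27 (adjusted P = 0.0083), and *Fzd1* (93.7, 61.9 and 57.7 CPM beside 19.8, 39.4 and 44.0 CPM), with 1.06 (adjusted P = 0.0091). Both kept their sign and lost their calls under the somatic scaling (0.35 and 0.15). *Rspo3* had 16 counts over the R111G/+ group and 2 over the *Dmrt1*+/- group (ratio 6.53, interval 1.53 to 58.5; adjusted P = 0.047) and lost its call when any of 5 libraries was left out, all 3 of *Dmrt1*+/- and R111G/+ replicates 1 and 2 (adjusted P from 0.0701 to 0.158). *Fzd1* fell under the fold limit without replicate 1 of *Dmrt1*+/- (0.77) or of R111G/+ (0.82), and *Wnt6* without *Dmrt1*+/- replicate 1 (0.98). All 8 spermatid genes also fell and all 10 macrophage markers rose in this comparison under TMM scaling. Under the somatic scaling 0 of the 10 macrophage markers were called higher. The stromal sum also stood higher, at 1721 to 3248 CPM beside 858 to 1321 CPM in *Dmrt1*+/- testes. The part of these cells in the member values was not tested.

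*Wnt4*, *Sfrp4* and *Rspo1*, which rose in *Dmrt1*-/- gonads, were not called with R111G/+. *Wnt4* stood at 0.957, 0.771 and 0.847 CPM, within the range of the *Dmrt1*+/- libraries (log2 fold change -0.65, adjusted P = 0.340). *Sfrp4* stood at 2.87, 0.630 and 2.00 CPM (0.17, adjusted P = 0.797) and *Rspo1* at 2.87, 1.26 and 1.69 CPM (0.04, adjusted P = 0.948). The *Wnt4* value depended on the processing. It was 0.51 without *Dmrt1*+/- replicate 3, passed the test as -1.11 (adjusted P = 0.0476) without *Dmrt1*+/- replicate 2, and passed as -1.57 (adjusted P = 0.0422) under the somatic scaling, where *Rspo1* (-0.93) and *Sfrp4* (-0.85) turned in sign and were not called. R111G/+ and *Dmrt1*-/- gonads differed directly. Of the 30 members 19 were called between them, 5 higher and 14 lower in R111G/+ (9 and 8 under the somatic scaling), where 37.7% of all genes were called, 27.6% higher and 10.1% lower, and the median was -0.81 beside 0.18. Under the somatic scaling 11001 of 20952 genes were called higher and 707 lower. *Rspo2*, *Rspo3*, *Sfrp2* and *Dkk2*, all called lower here, passed the filter on low counts only through the *Dmrt1*-/- libraries. The filter therefore fixed their direction, and the counts and the median include them. On the log2 scale the difference was -7.29 (SE 0.46) for *Sfrp4*, -6.43 (SE 0.50) for *Wnt4* and -1.89 (SE 0.40) for *Rspo1*, which lost its call under the somatic scaling (-0.98).

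**Figure D4:**
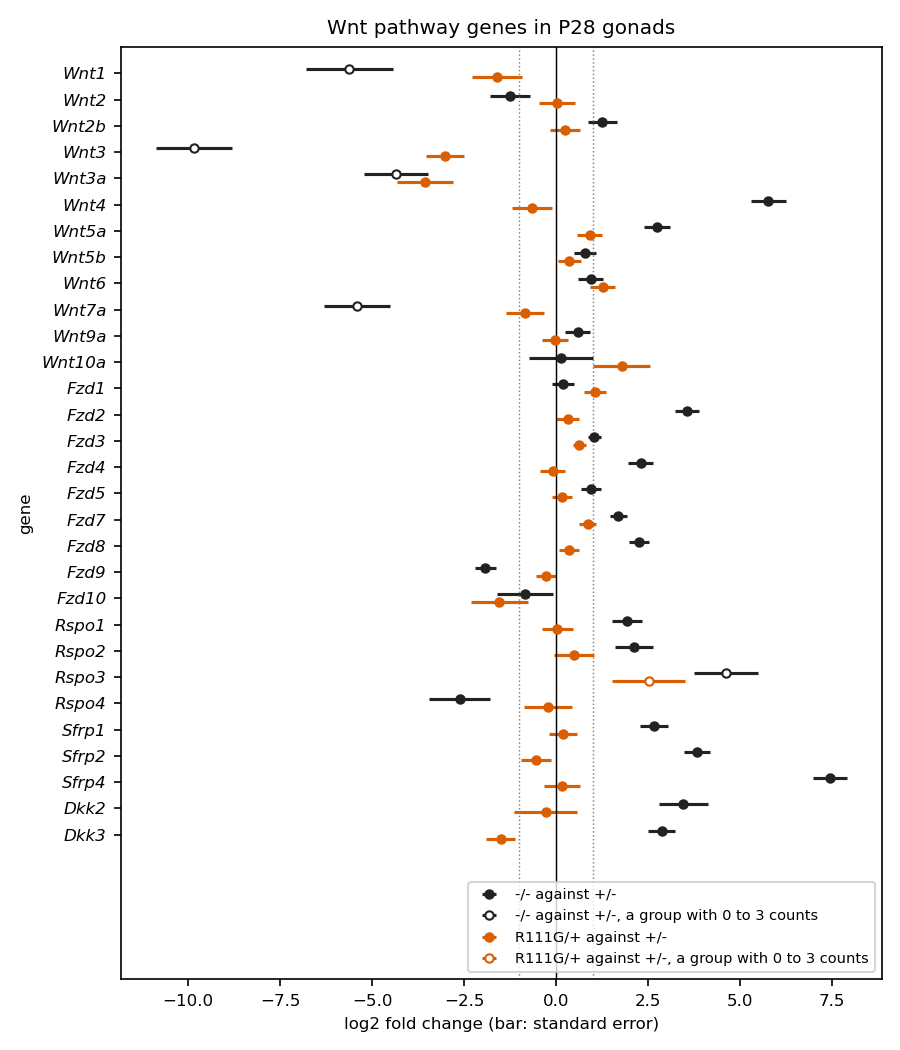
Log2 fold changes, with standard errors as bars, of the 30 tested members at P28 in *Dmrt1*-/- gonads (black) and in R111G/+ gonads (orange), each against the same *Dmrt1*+/- testes; open symbols mark a group with 0 to 3 counts, and dotted lines a 2-fold change. *Wnt4* is at 5.78 and -0.65 and *Sfrp4* at 7.46 and 0.17.

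The effect of *Dmrt1* loss was next measured in isolated Sertoli cells at P7. Of the 19 tested members 3 were called in f/f against f/+ cells, 2 higher and 1 lower, where 4.56% of all genes were called, 2.56% higher and 2% lower. The 2 higher members, *Wnt4* and *Wnt11*, passed the filter on low counts only through the f/f libraries, so the filter fixed their direction. *Rspo2*, the lower one, would not have passed on the f/f libraries alone. The median was 0.05 beside -0.01 over all genes, and 9 members had an unadjusted P below 0.05. *Wnt4* stood at 15.0, 5.68 and 10.0 CPM in f/f and 0.349, 1.56 and 0.552 CPM in f/+ cells, and the groups did not overlap (log2 fold change 3.69, SE 0.59, adjusted P = 0.0105). *Wnt11*, a ligand that acts mostly without β-catenin, stood at 5.46, 2.08 and 2.36 CPM beside 0.582, 0.173 and 0 CPM (3.55, SE 0.77, adjusted P = 0.0344). *Rspo2* fell, from 6.17, 4.16 and 11.9 CPM in f/+ to 1.31, 2.08 and 1.57 CPM in f/f cells (-2.18, SE 0.48, adjusted P = 0.0365).

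These calls rested on few libraries. *Wnt4* had an adjusted P of 0.0522 without f/f replicate 3 and 0.0543 without f/+ replicate 3, while its log2 fold change was 3.30 to 4.47 over the 6 omissions, the highest without f/+ replicate 2. *Wnt11* and *Rspo2* each lost the call in 5 of 6 omissions, *Wnt11* in all but that of f/+ replicate 1 (adjusted P from 0.0608 to 0.105) and *Rspo2* in all but that of f/+ replicate 2 (from 0.0633 to 0.125). With replicate 3 of either group left out, no member was called, and without f/f replicate 1 or 2 only *Wnt4* was. *Wnt5a* stood at 82.8, 83.3 and 96.0 CPM in f/f and 55.5, 54.9 and 47.4 CPM in f/+ cells, without overlap and with an adjusted P of 0.0278, but its log2 fold change of 0.73 was under the fold limit. *Sfrp4* stood at 33.8 to 40.2 CPM in f/f and 33.4 to 36.9 CPM in f/+ cells (0.05, adjusted P = 0.891), and *Rspo1*, with a mean of 1.06 CPM in f/f and 1.34 CPM in f/+ cells, was below the filter on low counts.

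Markers of other cells also differed between these preparations. The sum of 10 endothelial markers was 32.7 to 60.4 CPM in f/f and 14.8 to 22.3 CPM in f/+ cells, with 1 of 6 tested called, and that of 10 stromal markers 141 to 528 and 37.9 to 300 CPM, with 1 of 10 called. The 14 Sertoli genes summed to 3389 to 4717 CPM and 5267 to 6255 CPM, with 5 called lower, and the 12 granulosa genes to 3338 to 3910 and 1707 to 2771 CPM. The granulosa list did not move as one. The paper reports *Esr2* and *Nr5a2* (*Lrh1*), both in it, as reduced in the P7 mutant cells. The part of other cells in the *Wnt4* and *Wnt11* values was not tested.

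**Figure D5:**
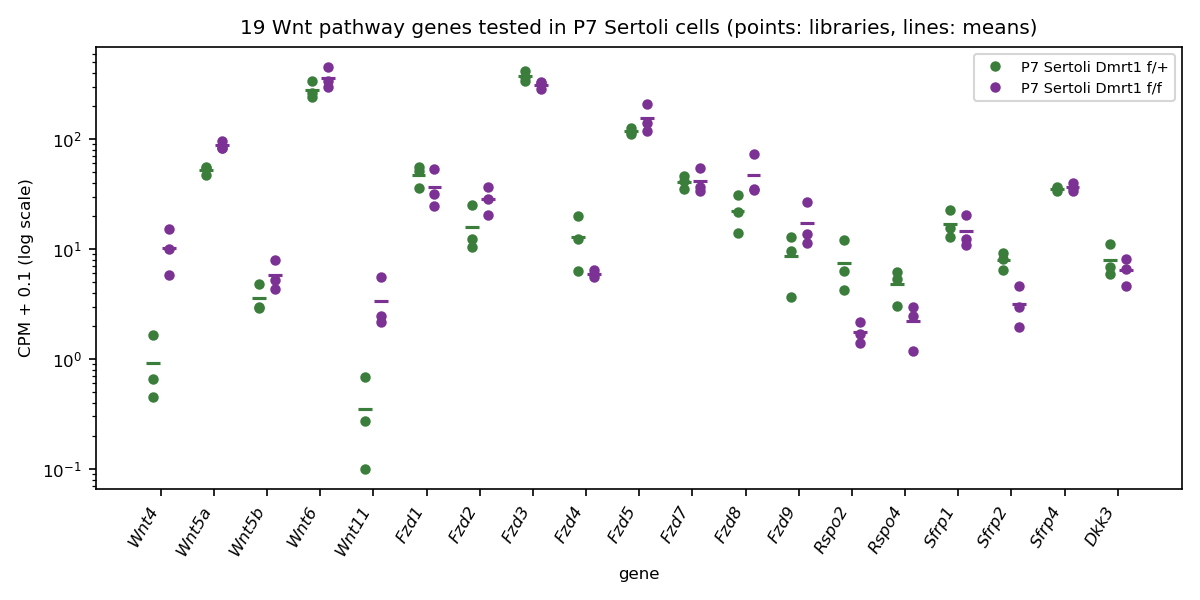
Level of the 19 tested members in the 6 libraries of P7 Sertoli cells, as CPM + 0.1 on a log axis, with points for libraries and lines for means, f/+ in green and f/f in purple. *Wnt4* (0.349 to 1.56 against 5.68 to 15.0 CPM) and *Wnt11* stand apart between the groups, while *Sfrp4*, *Fzd7* and *Wnt6* overlap.

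At P3 the same genotypes, and R111G over a null allele, were compared soon after birth, and edgeR called no member in any comparison. *Dmrt1*-/- against *Dmrt1*+/- gonads gave 0 of 26 tested members, with 7 at an unadjusted P below 0.05, where 0.511% of all genes were called, 0.202% higher and 0.309% lower. R111G/+ against *Dmrt1*+/- gonads gave 0 of 26, with 6 below that P (0.133% of all genes, 0.0821% higher and 0.0505% lower). R111G/- gave 0 against *Dmrt1*+/- (2 below that P; 0.196% of all genes, 0.0379% higher and 0.158% lower) and 0 against *Dmrt1*-/- gonads (3 below that P; 0.177%, 0.12% higher and 0.0568% lower). DESeq2 gave 1 call over these comparisons, that of *Sfrp4* in R111G/+ gonads.

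*Sfrp4* stood at 35.3, 16.2 and 20.3 CPM in *Dmrt1*+/- and at 11.0, 10.1 and 8.51 CPM in R111G/+ gonads at P3, and the groups did not overlap. Its log2 fold change was -1.29 (SE 0.24, adjusted P = 0.0537), just outside the threshold, and it passed as -1.50 (adjusted P = 0.0105) without *Dmrt1*+/- replicate 2. In *Dmrt1*-/- gonads it stood at 30.8, 26.9 and 29.4 CPM and in R111G/- gonads at 19.2, 21.5 and 16.6 CPM. *Wnt4* at P3 ran from 6.29 to 11.7 CPM over all 12 libraries, and *Rspo1* from 3.46 to 7.74 CPM, and no pair of groups passed the test for either among the 4 comparisons made.

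The P28 effect of *Dmrt1* loss differed from that at P3 when the difference itself was tested. Of 31 tested members 23 were called for this difference, 18 higher and 5 lower (4 and 11 under the somatic scaling), where 40.9% of all genes were called, 17.8% higher and 23.1% lower, and the median was 1.27 beside -0.20 over all genes. Under the somatic scaling 317 of 21377 genes were called higher and 13310 lower. The 18 include *Dkk2*, which passed the filter on low counts only through the P28 *Dmrt1*-/- libraries. The size of the difference was 7.17 (SE 0.46) for *Sfrp4*, 5.86 (SE 0.58) for *Wnt4* and 1.63 (SE 0.47) for *Rspo1*, which under the somatic scaling became 5.19, 3.87 and -0.38. Without P28 *Dmrt1*+/- replicate 3 the *Wnt4* difference was 7.20. For R111G/+ the same contrast called 3 of 31, *Wnt6* higher (1.59, SE 0.37) and *Wnt3* and *Dkk3* lower (-3.78 and -1.75), where 13.4% of all genes were called, 4.15% higher and 9.24% lower. Under the somatic scaling 0 were called higher and 3 lower, with *Wnt6* at 0.71 and not called, where 44 of 21377 genes were called higher and 4914 lower. Without P28 *Dmrt1*+/- replicate 3 the count was 7, and without P28 R111G/+ replicate 1 it was 2, with *Dkk3* at -1.47 (adjusted P = 0.0571).

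From P3 to P28 the levels in *Dmrt1*+/- gonads fell for most members under TMM scaling. Of 31 tested members 19 were called, 3 higher and 16 lower, where 54.7% of all genes were called, 35.7% higher and 18.9% lower, with medians of -1.34 and 0.23. Under the somatic scaling 18 were called, 14 higher and 4 lower, and the all-gene median was 2.64. Over all genes 17921 of 21377 were then called higher and 423 lower. The lists behind this scaling did not move together with age. The stromal sum was 8355 to 11729 CPM at P3 and 858 to 1321 CPM at P28. The macrophage sum was 73.0 to 132 CPM and 301 to 475 CPM. *Sfrp1* fell by 4.71 (SE 0.34), *Sfrp2* by 4.44 (SE 0.31) and *Sfrp4* by 3.89 (SE 0.36) on the log2 scale under TMM, and all 3 were still lower under the somatic scaling. *Wnt6*, at -1.15 under TMM, turned to 1.15. *Wnt3* (2.97) and *Wnt7a* (2.46) rose under both, *Wnt3* by 2.35 without P28 replicate 1 (and by a similar value without P3 replicate 1) and *Wnt7a* by 3.09 without P3 replicate 2. *Wnt3a* also rose under both, from 1 count over the P3 group to 71 over the P28 group (ratio 54.4, interval 9.46 to 2179).

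In *Dmrt1*-/- gonads the same ages were compared. Of 31 tested members 13 were called from P3 to P28, 5 higher and 8 lower, where 23% of all genes were called, 10.9% higher and 12.1% lower, with medians of -0.26 and 0, and under the somatic scaling 7 were higher and 6 lower. Over all genes that scaling gave 3315 higher and 1730 lower of 21377. *Sfrp4* rose (3.28, SE 0.30) and *Wnt4* rose (3.00, SE 0.38), as did *Rspo2* (2.85), *Dkk2* (2.47) and *Fzd4* (2.00). *Dkk2* passed the filter on low counts only through the P28 *Dmrt1*-/- libraries, so its direction was fixed by it. *Rspo1* did not pass the test (0.29, adjusted P = 0.520). *Wnt3* had 31 counts over the *Dmrt1*-/- group at P3 and 0 at P28, at least 11.9-fold lower. *Sfrp1* fell by 1.85 (SE 0.29).

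The other genes of the pathway were followed in 7 lists of 47 genes. Of 44 tested at P28, 21 rose and 5 fell with *Dmrt1* loss when set against wild-type testes (median 0.97), where 26.1% of all genes were called higher and 40.5% lower. Against *Dmrt1*+/- testes 17 rose and 5 fell (median 0.78; 19.8% and 38.7% of all genes), and in R111G/+ against *Dmrt1*+/- gonads 3 rose and 4 fell (6.72% and 28.1%). These splits moved with those of all genes under the somatic scaling, to 1 higher and 25 lower against wild-type testes and 0 and 14 in R111G/+ gonads. Of 20952 genes, 433 were then called higher and 16522 lower against wild-type testes, and 73 and 10265 in R111G/+ gonads. *Axin2*, a feedback inhibitor and widely used target gene of β-catenin, stood at 5.64, 11.3 and 7.38 CPM in wild-type testes and 51.1, 45.7 and 42.0 CPM in *Dmrt1*-/- gonads (2.55, SE 0.24), a change that was 0.081 and not called under the somatic scaling. Of the co-receptors and noncanonical receptors, 5 of 6 rose, and *Wls*, which carries Wnt proteins to the cell surface, rose by 2.75 (SE 0.32), whereas under the somatic scaling 0 of the 6 rose and *Wls* (0.40) was not called. *Lef1*, a nuclear partner of β-catenin, fell by 3.60 (SE 0.41), and *Dkkl1*, a spermatid gene related to *Dkk3*, by 9.33 (SE 0.52). Sertoli cells at P7 gave 4 higher and 2 lower of 43 tested, beside 2.56% and 2% of all genes. *Axin2* stood at 67.3, 68.6 and 106 CPM in f/f and 30.8, 36.0 and 37.1 CPM in f/+ cells (1.22, SE 0.22), and the antagonist *Wif1* at 52.4, 41.3 and 58.5 and 12.2, 11.6 and 4.14 CPM (2.44, SE 0.36). *Notum*, an enzyme that removes the lipid of Wnt proteins, rose by 2.08 (SE 0.50) and *Nkd1*, a feedback inhibitor, by 1.35 (SE 0.32). The noncanonical receptor *Ror2* fell by 2.42 (SE 0.41) and *Bambi*, a pseudoreceptor, by 2.07 (SE 0.15).

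Members lie next to each other in 4 pairs, the gap being 6.19 kb between *Wnt6* and *Wnt10a*, 16.18 kb between *Wnt3a* and *Wnt9a*, 24.33 kb between *Wnt9b* and *Wnt3* and 11.71 kb between *Wnt10b* and *Wnt1*. In *Dmrt1*-/- gonads at P28, *Wnt6* was called against wild-type testes and *Wnt10a* was not, while against *Dmrt1*+/- testes *Wnt6* (0.94) stayed under the fold limit and neither was called. *Wnt3a* fell in both comparisons, and *Wnt9a* was called in neither. *Wnt9b* and *Wnt10b* were below the filter.

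Chromatin contacts of *Dmrt1*-/- P7 Sertoli cells were given as 4291 interactions between 10 kb anchors, called over 2 replicates of this genotype alone. An anchor overlapped the gene for 14 of the 41 members (34.1%) and for 5953 of 55141 annotated genes of the count table (10.8%), a description in which gene length was not matched. Of 22 member interactions, spans ran from 120 to 1050 kb. That of *Wnt4* joined chr4:136890001-136900000 to chr4:137280001-137290000, 390 kb apart, with the second anchor in the 5′ part of the gene. That of *Sfrp4* joined chr13:19360001-19370000 to chr13:19620001-19630000, 260 kb apart. No test related the contacts to expression.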

How the data were processed

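Stranded mRNA-seq reads of 30 libraries were trimmed (Trim Galore 0.6.0, cutadapt 1.18), mapped to GRCm38 with STAR 2.7.2a and counted per GENCODE M25 gene by the authors, per the methods and the submitters' notes. The deposited table holds raw counts. A second deposited file, of another unit, lists interaction anchors as coordinates without a score. The Hi-C reads were processed with HiC-Pro 3.1.0 per the submitters' notes, and the paper names cooltools for calling enriched contacts. Gene positions came from GENCODE M21, with 99.5% of identifiers found.

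Groups came from the labels. Genes passing filterByExpr were TMM-scaled and tested in edgeR 4.0.16 (R 4.3.3, limma 3.58.1) with the quasi-likelihood test, in 1 fit per age and tissue, or over all libraries between ages. Calls needed a Benjamini–Hochberg adjusted P below 0.05 over all genes and a fold above 2. Standard errors were derived from the F value. The test was tried on simulated counts in which few, well-counted genes changed, in balanced directions. That setting does not cover the broad shift at P28 or members with few counts. Counting intervals are at 95% and cover counting error only. Alternatives were DESeq2 1.42.0, its size factors, library size, factors from 4 somatic lists, no filter, 2 groups only, a replicate block, no fold limit and leaving out each library.

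The name rule uses no values, but this gene set and the lists were proposed with earlier results of these data known. Named are *Wnt4*, *Rspo1*, *Sfrp4*, called members, and others chosen after their values were seen. P-values measure the spread between libraries, which may be technical.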

Additional observations from a re-analysis of the deposited data

Results flagged for a closer look

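Members whose *Dmrt1* effect differed between P28 and P3, by the test of that difference in edgeR (Benjamini–Hochberg adjusted P below 0.05 and more than 2-fold), are given here as log2 differences. For *Dmrt1*-/- against *Dmrt1*+/- gonads they were, among ligands, *Wnt4* 5.86, *Wnt5a* 2.69, *Wnt5b* 1.40, *Wnt2b* 1.24, *Wnt9a* 1.05, *Wnt7a* -5.39, *Wnt3a* -5.53 and *Wnt3* -9.37. Among receptors they were *Fzd2* 3.50, *Fzd4* 2.37, *Fzd8* 2.33, *Fzd7* 1.48, *Fzd3* 1.27 and *Fzd9* -1.47. Among R-spondins they were *Rspo3* 4.08, *Rspo2* 4.03, *Rspo1* 1.63 and *Rspo4* -2.93, and among antagonists *Sfrp4* 7.17, *Sfrp2* 3.80, *Dkk2* 3.81, *Dkk3* 3.07 and *Sfrp1* 2.86. The values of *Wnt3*, *Wnt3a*, *Wnt7a* and *Rspo3* rest on a group with 0 to 3 counts, depend on the prior count and are no bounds. *Dkk2* passed the filter on low counts only through the P28 *Dmrt1*-/- libraries, which fixed the direction of its difference.

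For R111G/+ against *Dmrt1*+/- gonads they were *Wnt6* 1.59, *Wnt3* -3.78 and *Dkk3* -1.75. The *Dmrt1*+/- libraries are shared by both sets. In the first set *Fzd9* lost its call in 10 of 12 omissions of a library, standing at -1.42 to -0.90 in these, and kept it without P3 *Dmrt1*+/- replicate 3 and P3 *Dmrt1*-/- replicate 2. *Wnt9a* lost it without replicate 1 of P28 *Dmrt1*+/- (1.10) or P3 *Dmrt1*-/- (1.10) or replicate 3 of P28 *Dmrt1*-/- (1.02), which also took *Wnt2b* to 0.77. *Wnt3a* lost it without P3 *Dmrt1*-/- replicate 1 (-4.49), *Rspo2* without P3 *Dmrt1*+/- replicate 2 (2.81) and *Rspo4* without P28 *Dmrt1*-/- replicate 1 (-2.26) or P3 *Dmrt1*-/- replicate 3 (-2.47). In the second set *Dkk3* lost it without P28 R111G/+ replicate 1 (-1.47). Of the first set, *Wnt2b*, *Wnt5b*, *Wnt9a*, *Fzd3*, *Fzd7* and *Rspo1* turned in sign under the somatic scaling.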

How the results depend on the processing

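The count of members called in *Dmrt1*-/- gonads at P28 was 19 to 27 against wild-type and 16 to 25 against *Dmrt1*+/- testes over the alternatives other than omissions. Counts that moved by more than 1.5 times were, without the filter on low counts, 1 for *Dmrt1*+/- against wild-type testes, 6 in P7 Sertoli cells, 1 for R111G/+ and 1 for R111G/- against *Dmrt1*+/- gonads at P3. With DESeq2 they were 5 in P7 Sertoli cells, 1 for R111G/+ at P3 and 5 for the P28 minus P3 difference of R111G/+, which was also 5 with library size alone. With the somatic lists they were 10 for R111G/+ against *Dmrt1*+/- testes at P28 and 15 for the P28 minus P3 difference of *Dmrt1*-/-. The cause was not tested.

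With each library left out in turn, the counts ran from 24 to 27 (*Dmrt1*-/- against wild-type), 20 to 26 (against *Dmrt1*+/- testes), 0 to 0 (*Dmrt1*+/- against wild-type), 3 to 8 (R111G/+ against *Dmrt1*+/-), 15 to 20 (R111G/+ against *Dmrt1*-/-), 0 to 4 (P7 Sertoli cells, 0 without replicate 3 of either group), 0 to 1 at P3, 21 to 25 and 2 to 7 (P28 minus P3 differences of *Dmrt1*-/- and R111G/+), 20 to 22 (*Dmrt1*+/- from P3 to P28) and 11 to 13 (*Dmrt1*-/- from P3 to P28).

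Signs that reversed under the somatic lists were, for *Dmrt1*-/- against wild-type testes, *Wnt2b* -0.88, *Wnt6* -0.75, *Fzd3* -1.03, *Fzd5* -1.03 and *Fzd7* -0.048, and against *Dmrt1*+/- testes *Wnt2b* -0.67, *Fzd3* -0.85 and *Fzd7* -0.20. For R111G/+ they were *Rspo1* -0.93 and *Sfrp4* -0.85, and at P3 *Wnt4* 0.016 in *Dmrt1*-/- against *Dmrt1*+/- and *Rspo1* -0.12 in R111G/- against *Dmrt1*-/- gonads. For the P28 minus P3 difference they were *Wnt2b* -0.78, *Wnt5b* -0.60, *Wnt9a* -0.98, *Fzd3* -0.70, *Fzd7* -0.52 and *Rspo1* -0.38 for *Dmrt1*-/-, and *Rspo1* -0.57 for R111G/+. From P3 to P28 in *Dmrt1*+/- gonads they were *Wnt2b* 0.14, *Wnt6* 1.15, *Fzd3* 0.95, *Fzd7* 0.62, *Fzd8* 0.81 and *Rspo1* 1.04. With library size alone the R111G/+ difference of *Wnt4* became 0.064.

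Omission of a library reversed values that were not called in the full set, which over all omissions ran as follows. For R111G/+ against *Dmrt1*+/- testes at P28, *Wnt4* ran from -1.11 to 0.51, *Rspo1* from -0.34 to 0.28 and *Sfrp4* from -0.28 to 0.61. In P7 Sertoli cells *Sfrp4* ran from -0.024 to 0.086. At P3 *Wnt4* ran from -0.26 to 0.074 in *Dmrt1*-/- against *Dmrt1*+/- and from -0.26 to 0.078 in R111G/- against *Dmrt1*-/- gonads, and *Sfrp4* from -0.52 to 0.082 in R111G/- against *Dmrt1*+/-. The R111G/+ difference of *Wnt4* ran from -0.55 to 1.07, the highest without P28 *Dmrt1*+/- replicate 3.

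Same-numbered libraries correlated between -0.39 and 0.36 in their deviations at P28 (median 0.03) and between -0.29 and 0.24 at P3 (median -0.04). At these ages the numbers showed no pairing. At P7 the 3 same-numbered pairs ran from -0.04 to 0.50, and the other pairs from -0.43 to 0.15. So few pairs cannot decide whether the numbers pair the P7 libraries. With the replicate block the members called were 25 and 22 for *Dmrt1*-/-, 5 for R111G/+ against *Dmrt1*+/- testes and 2 in P7 Sertoli cells, where *Rspo2* had an adjusted P of 0.0532. At P28 11 members, at P3 15 and at P7 22 did not pass the filter on low counts and were not tested, and no change in them is stated.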
